A study of Drosophila melanogaster with 8 samples.

Results

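The 10 genes described here make, pack or clear the main transmitters of the fly brain, and were followed through the 4 genotype groups of a study of TDP-43, the RNA-binding protein that the gene TBPH encodes in Drosophila melanogaster. They were chosen by symbol as Cha, VAChT, Gad1, VGlut, Vmat, DAT, SerT, CG1732, Eaat1 and Eaat2, and make up 10 of the 15141 genes counted. Of these, 9 are listed under that symbol and Vmat under its older symbol CG33528. CG1732 is the GABA transporter gene now called Gat. Each library was made from RNA of 150 pooled heads of late pupae, aged 73 to 90 h from puparium formation, and each group has 2 libraries. In the first loss-of-function (LOF) genotype, dTDP-43Δ142/Df(2R)106, a deletion allele stands over a chromosomal deficiency, which as a rule removes neighbouring genes too, and in the second, dTDP-43Δ23/Δ142, it stands over another deletion allele. The names used for them here are deficiency genotype and 2-deletion genotype. In gain of function (GOF), act5c>dTDP-43, the fly protein is driven by actin 5C, a promoter active in most cell types. The wild-type libraries are titled Canton S, w1118 and carry the genotype w1118. Whether the 2 libraries of a group stem from separate crosses is not in the labels, so the p-values cover only library-to-library spread, and that spread may be technical.

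As background, a fast transmitter is made or taken up in the nerve ending, pumped into vesicles by a vesicular transporter that uses a proton gradient, and cleared from the synaptic cleft by a plasma membrane transporter or an enzyme. In the fly brain acetylcholine is the main excitatory transmitter and GABA the main inhibitory one. Glutamate drives the muscles and also acts in the brain, and dopamine, serotonin and octopamine modulate circuits. Much of the clearance of GABA and glutamate is done by glia, above all by astrocyte-like glia that wrap the neuropil.

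The genes lie close to others in ways that bear on the counts. In an Ensembl annotation of a later build than the files use, VAChT lies within Cha on the same strand of arm 3R, and the genes share 606 bp of exon, out of 4011 bp for Cha and 7098 bp for VAChT. CG13330, on the opposite strand, puts all of its 2129 bp of exon inside the 8134 bp of Vmat exon. VGlut shares 39 bp with CG18641 on the opposite strand, and CG1732, on chromosome 4, shares 289 bp with an annotated INE-1 element. The sources used here give neither the strand setting nor the treatment of reads that fall in 2 genes. The values of Cha, VAChT and Vmat are uncertain to that extent. Gad1, DAT, SerT, Eaat1 and Eaat2 share no exon with another gene in that annotation. No sequence of these genes is used here.

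Depth ran from 716027 to 1302855 total counts per library, lowest in a wild-type library and highest in a 2-deletion library. Levels are given in CPM, counts per 1000000 counts of the library after TMM scaling (trimmed mean of M values), which evens out composition. TBPH itself had 49.4 and 30.8 CPM in the deficiency genotype, 40.2 and 44.2 CPM in the 2-deletion genotype, 55.1 and 38.8 CPM in GOF, and 49.8 and 57.1 CPM in wild type. All 4 LOF libraries lay below both wild-type libraries, as for 16.1% of all genes, and the GOF libraries overlapped wild type. Against wild type TBPH had a log2 fold of -0.38 in LOF (95% interval -0.95 to 0.20, adjusted p = 0.47). In GOF it was -0.18 (-0.83 to 0.48, adjusted p = 0.79), and neither passed the test. The GOF interval leaves out a rise of 1 on the log2 scale, and the LOF interval a fall of 1. The counts thus show no gain of TBPH RNA of that size in GOF, and are at most a weak check of the labels. The sources used here do not say how the counted exons relate to the deleted or expressed parts of the gene, and the groups below are libraries as labelled. All 10 genes passed the filter on low counts and were among the 9252 genes tested.

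Of the 10 genes, CG1732 alone passed the test, and only in GOF against wild type. This GABA transporter gene was at 26.6 ± 5.52 CPM in GOF and 96.9 ± 4.44 CPM in wild type (SD, n = 2 each). Across all genes, 3.11% were called in that comparison at an adjusted p of 0.05, and 2.19% were called lower. No member was called in LOF against wild type, where the background was 2.19%. The same held for the deficiency genotype (1.68% of all genes called) and for the 2-deletion genotype (0.832%). Without adjustment, 3 members had a p under 0.05 and a lower level in GOF, where 11.0% of all genes did. In the 2-deletion genotype 2 members did (8.57% of all genes), none did in the deficiency genotype (10.2%), and 1, CG1732, did in LOF as a whole (11.8%).

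The groups can also be read by whether their libraries overlap. In GOF both libraries lay below both wild-type libraries for 6 of the 10 genes (VAChT, Gad1, DAT, SerT, CG1732 and Eaat1), against 24.9% of all genes, and above them for Vmat (24.4%). In the 2-deletion genotype both libraries lay below wild type for 7 of the 10 (Cha, VAChT, Gad1, Vmat, DAT, CG1732 and Eaat1), against 26.3% of all genes, and above for VGlut (26.3%). In the deficiency genotype none lay below (25.2%), and VAChT, VGlut and Vmat lay above (24.5%). Taking all 4 LOF libraries together, none of the 10 genes lay below wild type (16.1%). The median log2 fold of the 10 genes was 0.02 in the deficiency genotype, -0.51 in the 2-deletion genotype and -0.78 in GOF, beside a median of 0.01 over all genes tested in each. These 3 comparisons use the same wild-type libraries, so they are not independent of each other. The 10 genes were also chosen with earlier results of these data known, so the shares and medians are descriptions and not tests.

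**Figure D1:**
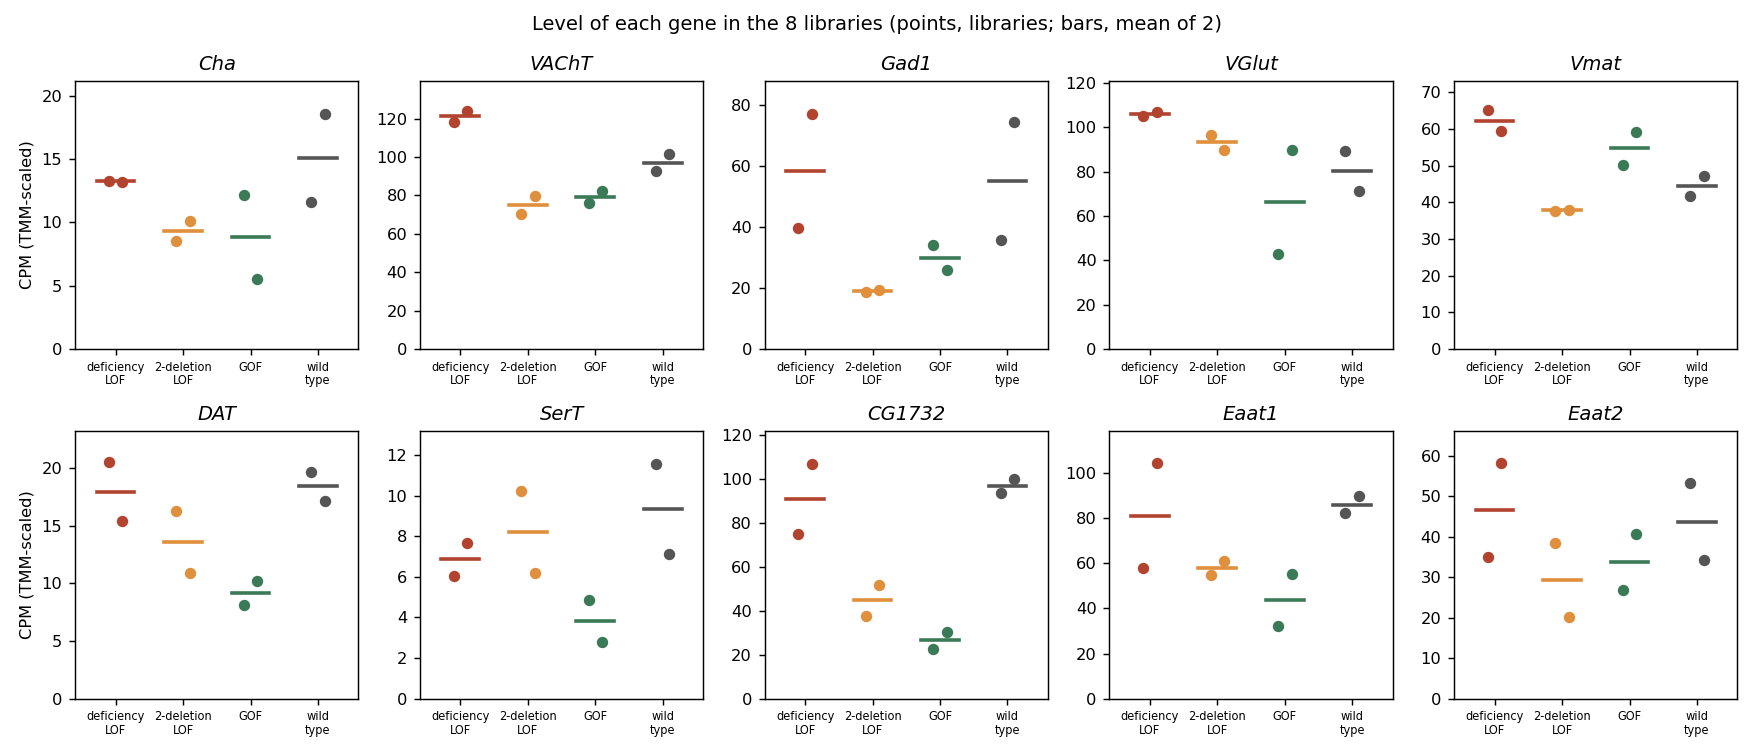
Level of each gene in CPM (TMM-scaled, linear axis from 0), with a point per library and a bar at the mean of the 2 libraries of a group. CG1732 lies at 22.7 and 30.5 CPM in GOF, apart from 93.7 and 100 CPM in wild type, while both Vmat libraries of GOF and of the deficiency genotype lie above wild type.

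The GABA pair consists of Gad1, glutamate decarboxylase, which makes GABA, and CG1732, which takes it up from the cleft. CG1732 had 74.7 and 107 CPM in the deficiency genotype, 37.6 and 51.9 CPM in the 2-deletion genotype, 22.7 and 30.5 CPM in GOF, and 93.7 and 100 CPM in wild type. The GOF and 2-deletion libraries all lay below the wild-type libraries, and the deficiency libraries lay on either side of them. The log2 fold in GOF was -1.86 (SE 0.29, 95% interval -2.49 to -1.24, adjusted p = 0.0103), a level 3.64 times lower, and its p ranked 24 among all genes. In the 2-deletion genotype the log2 fold was -1.11 (SE 0.27, interval -1.70 to -0.52) and missed the threshold at an adjusted p of 0.0885. It passed in 5 of 19 alternatives, among them without GOF replicate 1 or 2 (adjusted p = 0.0238 and 0.0207), with no filter on low counts (0.0362) and with only the groups compared in the fit (0.00871). In the deficiency genotype it was -0.09 (interval -0.66 to 0.48, adjusted p = 0.90). The mean over both LOF genotypes was thus -0.60 (adjusted p = 0.18), a value that neither genotype shows by itself. The GOF call was lost without wild-type replicate 1 or 2, at adjusted p = 0.0521 and 0.0884, with log2 folds of -1.89 and -1.80 and a single wild-type library left.

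Gad1 had 39.8 and 77.0 CPM in the deficiency genotype, 18.8 and 19.4 CPM in the 2-deletion genotype, 34.1 and 25.9 CPM in GOF, and 35.9 and 74.3 CPM in wild type. The 2-deletion libraries were the lowest of the 8 and close to each other, whereas the wild-type libraries differed about as much as the deficiency libraries. The log2 fold in the 2-deletion genotype was -1.50 (SE 0.42, interval -2.42 to -0.58, adjusted p = 0.12), and -0.90 without wild-type replicate 2. It passed with only the groups compared in the fit (adjusted p = 0.0193). In GOF it was -0.85 (SE 0.40, interval -1.73 to 0.03, adjusted p = 0.27), and -0.23 without that library. In the deficiency genotype it was 0.11 (interval -0.74 to 0.96).

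The acetylcholine pair consists of Cha, choline acetyltransferase, which makes the transmitter, and VAChT, the transporter that loads it into vesicles. VAChT had 118 and 124 CPM in the deficiency genotype, 70.1 and 79.8 CPM in the 2-deletion genotype, 76.2 and 82.3 CPM in GOF, and 92.6 and 101 CPM in wild type. No group overlapped wild type, and the deficiency libraries stood on the other side of it from the 2-deletion and GOF libraries. Such a separation held for 24.5% of all genes in the deficiency genotype (above), 26.3% in the 2-deletion genotype (below) and 24.9% in GOF (below). The log2 folds were small and none passed the test, at 0.32 in the deficiency genotype (interval -0.11 to 0.76), -0.37 in the 2-deletion genotype (-0.81 to 0.07) and -0.29 in GOF (-0.73 to 0.15). These intervals leave out a change of 1 on the log2 scale in either direction.

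Cha was counted far less often than VAChT, with 11 and 12 counts in the deficiency genotype, 10 and 13 counts in the 2-deletion genotype, 15 and 6 counts in GOF, and 10 and 13 counts in wild type. Its level was 13.2 ± 0.05, 9.31 ± 1.08, 8.86 ± 4.68 and 15.1 ± 4.95 CPM in the same order (SD, n = 2 each). At this depth the 95% intervals of the log2 fold ran from -1.27 to 0.94 in the deficiency genotype, from -1.77 to 0.44 in the 2-deletion genotype and from -1.83 to 0.40 in GOF, and each holds both no change and a level lower by 1 on the log2 scale.

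The glutamate genes comprise VGlut, which loads glutamate into vesicles, and Eaat1 and Eaat2, which take up excitatory amino acids. Eaat1 is the main glutamate transporter of fly glia, and Eaat2 has been tied to taurine and aspartate uptake. VGlut had 105 and 107 CPM in the deficiency genotype, 96.6 and 89.9 CPM in the 2-deletion genotype, 43 and 89.7 CPM in GOF, and 89.1 and 71.4 CPM in wild type. All 4 LOF libraries lay above both wild-type libraries, as for 15.1% of all genes, and the GOF libraries were far apart. The log2 fold was 0.30 in LOF (SE 0.26, interval -0.27 to 0.87, adjusted p = 0.56) and -0.29 in GOF (SE 0.30, interval -0.95 to 0.37, adjusted p = 0.64). The GOF value was -0.90 without GOF replicate 2 and 0.16 without GOF replicate 1, so its direction rests on 1 library.

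Eaat1 had 57.9 and 104 CPM in the deficiency genotype, 54.7 and 61.2 CPM in the 2-deletion genotype, 32.4 and 55.5 CPM in GOF, and 82.2 and 90.0 CPM in wild type. Both GOF and both 2-deletion libraries lay below wild type, and deficiency replicate 2 lay above it. The log2 fold in GOF was -0.97 (SE 0.32, interval -1.68 to -0.27) with an unadjusted p of 0.0107, and missed the threshold at an adjusted p of 0.124. Without GOF replicate 2 it was -1.40 and passed (adjusted p = 0.0284), and without GOF replicate 1 it was -0.62. In the 2-deletion genotype it was -0.57 (interval -1.25 to 0.12, adjusted p = 0.41). In the deficiency genotype it was -0.08 (interval -0.76 to 0.61).

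Eaat2 had 35.0 and 58.3 CPM in the deficiency genotype, 38.5 and 20.1 CPM in the 2-deletion genotype, 26.8 and 40.7 CPM in GOF, and 53.2 and 34.3 CPM in wild type. The libraries of every group overlapped those of wild type. The log2 folds were 0.08, -0.60 and -0.40 in the deficiency genotype, the 2-deletion genotype and GOF, with standard errors of 0.40 in each.

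Of the monoamine genes, Vmat loads dopamine, serotonin and octopamine into vesicles, while DAT and SerT return dopamine and serotonin to the nerve ending. Vmat had 65.1 and 59.4 CPM in the deficiency genotype, 37.6 and 38.0 CPM in the 2-deletion genotype, 50.3 and 59.2 CPM in GOF, and 41.7 and 47.1 CPM in wild type. No group overlapped wild type, a separation held by 24.5% of all genes in the deficiency genotype (above), 26.3% in the 2-deletion genotype (below) and 24.4% in GOF (above). The log2 folds were 0.49 in the deficiency genotype (interval -0.07 to 1.04, adjusted p = 0.36), -0.23 in the 2-deletion genotype (-0.79 to 0.33, adjusted p = 0.72) and 0.30 in GOF (-0.25 to 0.85, adjusted p = 0.55). It was the only one of the 10 genes with a positive fold in GOF, where VAChT, VGlut and Eaat2 also turned positive when libraries were scaled by pan-neuronal markers.

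DAT had 20.5 and 15.4 CPM in the deficiency genotype, 16.2 and 10.8 CPM in the 2-deletion genotype, 8.11 and 10.2 CPM in GOF, and 19.7 and 17.1 CPM in wild type. These levels rest on 10 to 19 counts per library. Both GOF libraries were the lowest of the 8, with a log2 fold of -1.01 (SE 0.44, interval -1.97 to -0.05) whose unadjusted p of 0.0408 became 0.23 after adjustment. SerT rested on still fewer counts, with 5 and 7 counts in the deficiency genotype, 12 and 8 counts in the 2-deletion genotype, 6 and 3 counts in GOF, and 10 and 5 counts in wild type. Pooled over libraries, SerT stood at 3.89 CPM in GOF (95% exact Poisson interval 1.78 to 7.38) and at 9.59 CPM in wild type (5.37 to 15.8), intervals that overlap and cover counting error only. Its log2 fold in GOF was -1.27 (SE 0.66, interval -2.71 to 0.17, adjusted p = 0.32).

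**Figure D2:**
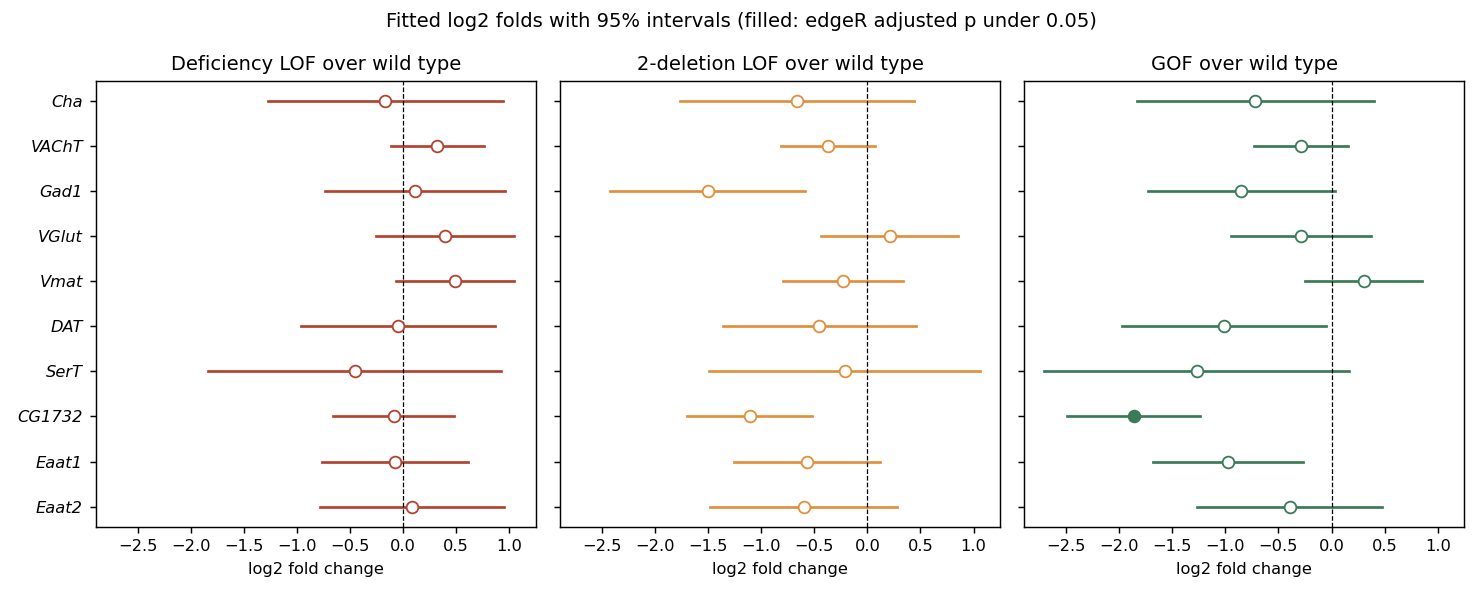
Fitted log2 fold of each gene against wild type in the deficiency genotype, the 2-deletion genotype and GOF, with 95% intervals from the edgeR fit and filled points where the adjusted p is under 0.05. The only filled point is CG1732 in GOF at -1.86, and the intervals of Gad1 and CG1732 in the 2-deletion genotype and of DAT and Eaat1 in GOF also leave out 0 without passing the adjusted threshold.

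The LOF genotypes were next set against each other, which uses no wild-type library. The deficiency genotype had the higher mean in 9 of the 10 genes, of which VGlut turned negative under pan-neuronal scaling. The median log2 fold over the 2-deletion genotype was 0.59, beside 0.01 over all genes tested. The direction was not particular to the 10 genes. Of the cell type markers read below, 13 of 14 pan-neuronal, 10 of 11 glial and 14 of 14 muscle markers were also higher. Their medians were 0.26, 0.19 and 0.89. So were 12 of 13 other acetylcholine genes, with a median of 0.23. For Cha, VAChT, Gad1, VGlut, Vmat and CG1732 both deficiency libraries lay above both 2-deletion libraries, as for 20.7% of all genes. The log2 folds were 1.61 for Gad1 (SE 0.41, interval 0.71 to 2.52), 1.02 for CG1732 (SE 0.27, interval 0.43 to 1.60), 0.72 for Vmat (SE 0.25, interval 0.18 to 1.26) and 0.69 for VAChT (SE 0.20, interval 0.26 to 1.12). These 4 had unadjusted p-values of 0.00215, 0.00261, 0.0133 and 0.00443, each under 0.05 as for 4.07% of all genes in this direction. None passed after adjustment (adjusted p = 0.38 to 0.43), and edgeR called no gene of 9252 in this comparison (0.00%), although 869 (9.39%) had an unadjusted p under 0.05 and DESeq2 called 8.

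Between LOF and GOF, edgeR likewise called no gene (0.00%), although 507 (5.48%) had an unadjusted p under 0.05 and DESeq2 called 8. CG1732 had the fourth smallest p of all genes there, with 37.6 to 107 CPM in the 4 LOF libraries and 22.7 and 30.5 CPM in GOF. Its log2 fold was 1.27 (SE 0.26, interval 0.70 to 1.83, adjusted p = 0.57). Unadjusted p-values were under 0.05 for VGlut, CG1732 and Eaat1, all higher in LOF, as for 2.96% of all genes. LOF libraries did not overlap GOF libraries for VGlut, DAT, SerT and CG1732, again higher in LOF, as for 6.20% of all genes. For VGlut the lowest LOF and highest GOF libraries were at 89.9 and 89.7 CPM. For DAT they were at 10.8 and 10.2 CPM, on 14 and 11 counts. For SerT they were at 6.03 and 4.87 CPM, on 5 and 6 counts, so these separations are narrow. Without GOF replicate 2, which leaves 1 GOF library, the log2 fold was 1.48 for CG1732 and 1.20 for VGlut. With any 1 library left out, it ranged from 1.06 to 1.48 for CG1732 and from 0.15 to 1.20 for VGlut.

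Levels of different genes were compared per kb of exon, with exon lengths from the later annotation, so they are approximate. In wild type CG1732 was first at 33.5 ± 1.53 CPM per kb and Eaat1 second at 27.4 ± 1.77 CPM per kb (SD, n = 2), and their libraries did not overlap. Gad1, VGlut, VAChT and Eaat2 followed at 15.0, 14.0, 13.7 and 10.9 CPM per kb, each overlapping the next. DAT at 6.05 and Vmat at 5.46 overlapped each other, as did Cha at 3.76 and SerT at 2.51. In GOF CG1732 was in rank 4 at 9.19 ± 1.91 CPM per kb, below VAChT (11.2) with no overlap, and overlapping Eaat1 (14.0), VGlut (11.6) and Eaat2 (8.44). In the 2-deletion genotype it was in rank 3 at 15.5 ± 3.49 CPM per kb, behind Eaat1 at 18.5 and VGlut at 16.3 and overlapping both, and in the deficiency genotype it was first at 31.3 ± 7.80 CPM per kb, overlapping Eaat1 at 25.9. SerT was last in every group.

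The other genes of each transmitter system were read from lists. Of 7 other GABA genes tested (the vesicular transporter VGAT, the transaminase gene CG7433, now Gabat, which breaks GABA down, and 5 receptor genes), none was called, and 6 had a negative fold in GOF, with a median of -0.68. In LOF 3 of the 7 were negative, with a median of 0.09. CG7433 had the smallest p of these in both, at 33.2 and 49.0 CPM in GOF and 66.0 and 71.4 CPM in wild type (log2 fold -0.74, adjusted p = 0.17), and in LOF its log2 fold was -0.43 (adjusted p = 0.34). It was at 59.1 and 74.8 CPM in the deficiency genotype and 33.3 and 43.4 CPM in the 2-deletion genotype, so here too the LOF genotypes did not overlap.

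Of 13 other acetylcholine genes tested, 1 was called higher in LOF and none in GOF. The called gene was nAcRalpha-30D, which encodes the nicotinic receptor subunit alpha 6. It was at 57.9 and 61.6 CPM in the deficiency genotype, 54.7 and 55.8 CPM in the 2-deletion genotype and 17.4 and 15.7 CPM in wild type (log2 fold 1.78 in LOF, SE 0.41, adjusted p = 0.0489). The GOF libraries lay at 10.5 and 34.2 CPM, on either side of wild type. The LOF call held in 10 of 19 alternative settings, with log2 folds from 1.73 to 1.89. In GOF the smallest p belonged to nAcRalpha-80B, the alpha 4 subunit gene, at 16.2 and 20.3 CPM in GOF and 34.7 and 32.9 CPM in wild type (log2 fold -0.89, adjusted p = 0.16). The median over the 13 genes was -0.06 in LOF and -0.49 in GOF.

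Of 15 other glutamate genes tested, 1 was called lower in LOF and none in GOF. Got2, an aspartate aminotransferase of mitochondria that interconverts glutamate and aspartate, was at 68.7 and 97.9 CPM in the deficiency genotype, 58.1 and 50.4 CPM in the 2-deletion genotype and 149 and 119 CPM in wild type. Its log2 fold was -1.0 in LOF (SE 0.21, adjusted p = 0.0369) and -0.72 in GOF (adjusted p = 0.12), and the LOF call held in 11 of 19 alternative settings. The medians were -0.06 in LOF and -0.18 in GOF.

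None of the 10 other monoamine genes tested was called. In LOF the smallest p was that of ple, tyrosine hydroxylase, which serves both dopamine synthesis and the tanning of cuticle. It was at 709 and 1411 CPM in the deficiency genotype, 143 and 440 CPM in the 2-deletion genotype, 105 and 286 CPM in GOF and 75.2 and 103 CPM in wild type (log2 fold 2.65 in LOF, SE 0.79, adjusted p = 0.18). In GOF it was that of Pu, a gene of pteridine and cofactor synthesis, at 34.1 and 87.9 CPM in GOF and 164 and 236 CPM in wild type (log2 fold -1.72, adjusted p = 0.14). Of the 9 other genes tested from the family of DAT, SerT and CG1732, the sodium-coupled SLC6 transporters, none was called, with medians of -0.06 in LOF and -0.07 in GOF. Among them blot had the smallest p in LOF (log2 fold 0.44, adjusted p = 0.27) and in GOF (log2 fold 0.38, adjusted p = 0.41).

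**Figure D3:**
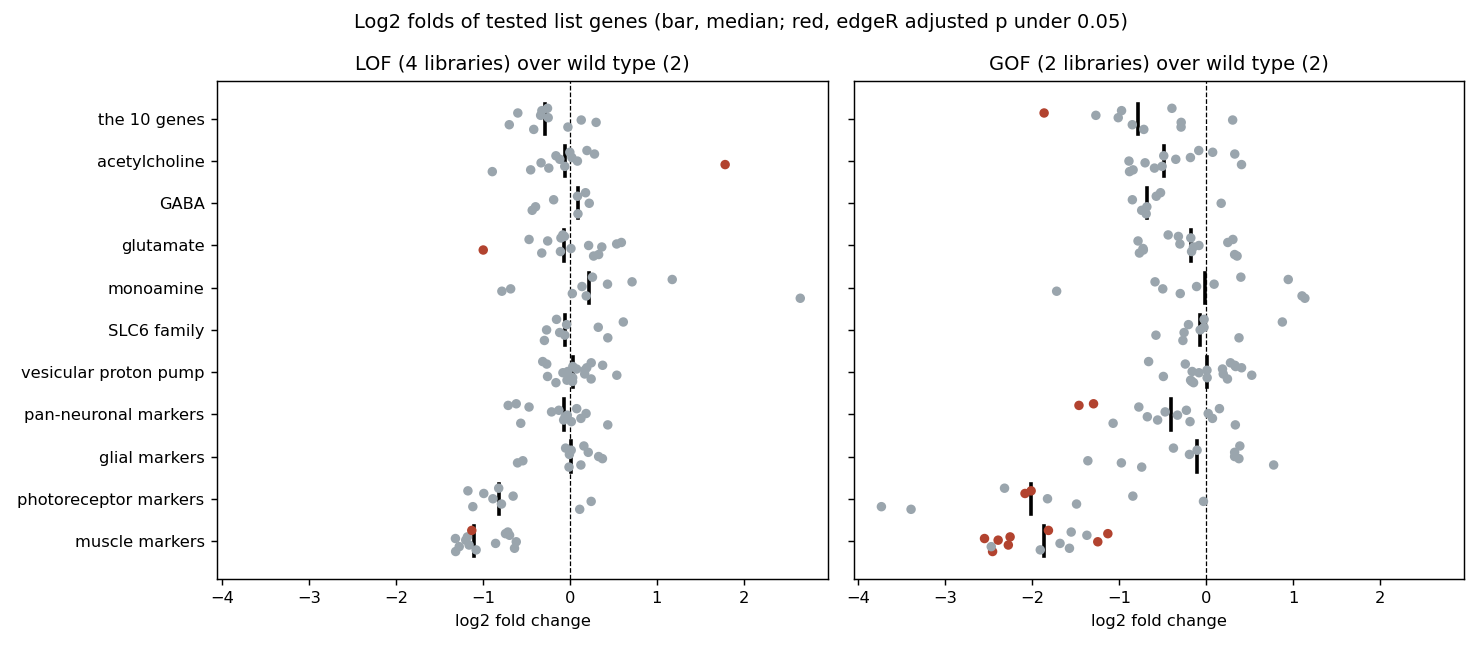
Log2 folds of tested genes by list in LOF (left) and GOF (right) against wild type, with a point per gene, a bar at the median and red points where the edgeR adjusted p is under 0.05. The 10 genes have a median of -0.29 in LOF and -0.78 in GOF, and are left out of the other lists. Muscle and photoreceptor markers lie lowest in GOF, with medians of -1.86 and -2.01 there.

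Whole heads hold many cell types, and in bulk RNA fewer cells of a type and less RNA per cell cannot be told apart. Pan-neuronal markers were present, none of the 14 at 0 counts over the libraries, with a summed level of 2742 to 2813 CPM in the deficiency genotype, 2292 to 2374 CPM in the 2-deletion genotype, 1811 to 2285 CPM in GOF and 2690 to 2799 CPM in wild type. In GOF 10 of the 14 had a negative fold, with a median of -0.40, and 2 were called lower, nrv3, a sodium pump subunit of neurons (log2 fold -1.46, adjusted p = 0.0074), and para, the sodium channel (log2 fold -1.30, adjusted p = 0.012). In LOF 9 of the 14 were negative, with a median of -0.06 and none called, nrv3 having the smallest p (log2 fold -0.71, adjusted p = 0.054). Of the 4 markers with a positive fold in GOF, the RNA-binding protein gene elav was at 106 and 131 CPM in GOF. In wild type elav was at 101 and 87.1 CPM (log2 fold 0.33, adjusted p = 0.45).

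Glial markers, 11 genes with none at 0 counts, summed to 1345 to 1374 CPM in the deficiency genotype, 1187 to 1257 CPM in the 2-deletion genotype, 1174 to 1266 CPM in GOF and 1209 to 1293 CPM in wild type. The GOF and 2-deletion libraries overlapped wild type in that sum. It is weighted to Nrx-IV, Gli and nrv2, at mean levels of 393, 205 and 191 CPM over the 8 libraries. By comparison, repo had a mean level of 24.7 CPM. None of the glial markers was called in LOF or GOF, 5 and 6 of the 11 had a negative fold, and their medians were 0.02 and -0.11. In LOF the smallest p was that of Mdr65, a transporter gene of the blood-brain barrier (log2 fold -0.60, adjusted p = 0.32). The glial marker with the smallest p in GOF was alrm, a gene of astrocyte-like glia listed as CG11910. It was at 71.1 and 93.5 CPM in the deficiency genotype, 28.2 and 50.4 CPM in the 2-deletion genotype, 25.1 and 39.8 CPM in GOF and 67.1 and 100 CPM in wild type (log2 fold -1.36 in GOF, SE 0.35, adjusted p = 0.055). The GOF and 2-deletion libraries of alrm all lay below wild type. Libraries did so for 24.9% of all genes in GOF and 26.3% in the 2-deletion genotype. In GOF 5 of the 11 markers had a positive fold. The mean of moody, for example, was 50.9 CPM in GOF and 29.4 CPM in wild type. The marker repo was at 17.8 and 14.8 CPM in GOF and 27.8 and 27.1 CPM in wild type (log2 fold -0.74, adjusted p = 0.29).

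Muscle markers were also lowest in GOF. Their summed level was 14929 to 21804 CPM in the deficiency genotype, 10797 to 11369 CPM in the 2-deletion genotype, 5519 to 10431 CPM in GOF and 23576 to 33544 CPM in wild type. In GOF 14 of 14 had a negative fold and 8 were called lower (Mhc, Mlc1, Mlc2, Mlp84B, Tm1, Tm2, sls and up, genes of the contractile apparatus, with log2 folds from -2.55 to -1.13). In LOF 14 of 14 were negative too, with a median of -1.10, and Mlp84B was called lower (log2 fold -1.13, adjusted p = 0.0249). Photoreceptor markers summed to 686 to 1379 CPM in the deficiency genotype, 534 to 583 CPM in the 2-deletion genotype, 339 to 521 CPM in GOF and 1067 to 1404 CPM in wild type, with 9 of 9 tested negative in GOF. Of these 2 were called, inaC, a protein kinase C of the eye (log2 fold -2.08), and ninaC, a myosin kinase (log2 fold -2.01). In LOF 7 of 9 were negative, with a median of -0.82 and none called, inaC having the smallest p (log2 fold -0.99, adjusted p = 0.0689). The part of these tissues, and of the marker shifts above, in the levels of the 10 genes was not tested.

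Ratios within a library do not depend on scaling. CG1732 counts amounted to 5.56% and 7.77% of the summed glial marker counts in the deficiency genotype, 3.17% and 4.13% for 2-deletion libraries, 1.79% and 2.60% in GOF, and 7.75% and 7.73% in wild type. Against the pan-neuronal markers they amounted to 2.66% and 3.89%, 1.58% and 2.27%, 1.25% and 1.34%, and 3.48% and 3.57% in the same order of groups. By both measures the GOF libraries were the lowest of the 8 and the 2-deletion libraries the next. The summed counts weigh the most highly counted markers most, so these ratios are not a measure of glial or neuronal content. With libraries scaled by the pan-neuronal markers, an alternative added after seeing the data that raises the median of all genes by 0.44 in GOF, CG1732 had a log2 fold of -1.44 and stayed called.

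Eaat1 counts amounted to 4.30% and 7.61% of the glial marker counts in the deficiency genotype, 4.61% and 4.87% for 2-deletion libraries, 2.56% and 4.73% in GOF, and 6.79% and 6.96% in wild type. The ratio of VGlut to Gad1 counts was 2.64 and 1.39 in the deficiency genotype, 5.14 and 4.64 for 2-deletion libraries, 1.26 and 3.46 in GOF, and 2.48 and 0.96 in wild type. The 2-deletion libraries held the highest VGlut to Gad1 ratios of the 8, and the other groups overlapped each other.

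**Figure D4:**
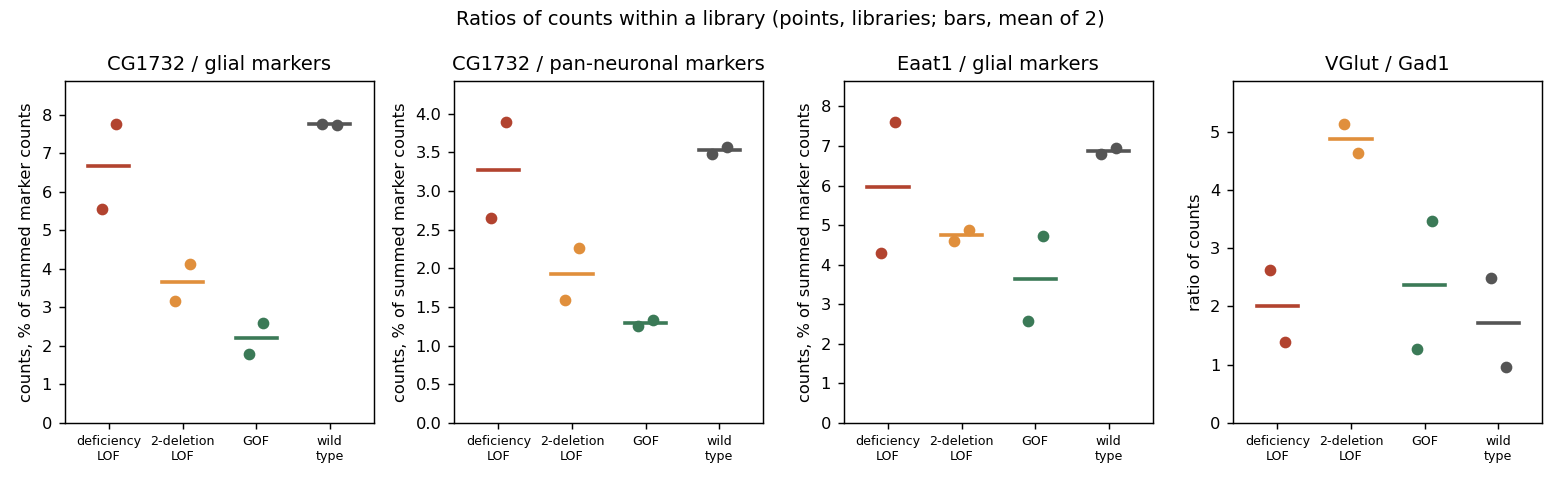
Counts of CG1732 and Eaat1 as a percent of summed marker counts, and the ratio of VGlut to Gad1 counts, with a point per library, a bar at the mean of 2 and linear axes from 0. CG1732 lies at 1.79% and 2.60% of glial marker counts in GOF and at 7.75% and 7.73% in wild type, and the VGlut to Gad1 ratio is highest in the 2-deletion libraries, at 5.14 and 4.64.

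Profiles over the 8 libraries were compared by the root-mean-square difference of log2 CPM after centring each gene on its own mean, among 5000 or 5001 other genes whose log2 CPM averaged 5 or more. The gene nearest to CG1732 was Act57B, a muscle actin, at 0.22 on the log2 scale, where the profile of CG1732 itself varied by 0.77. Among the 10 genes Eaat1 was nearest to CG1732, at 0.39 and rank 58 of all genes compared. Gad1 also varied widely (0.69), and its nearest gene was CG2862 at 0.33. VAChT and Vmat varied least of the 10 (0.28 each). The gene nearest to VAChT was na, a sodium leak channel gene of neurons, at 0.10. VAChT and Vmat were each other's nearest among the 10, at 0.23. That distance was not much below their own variation, and many other genes were nearer (Vmat at rank 217 for VAChT, VAChT at rank 157 for Vmat). These distances are a description over 8 libraries, all genes sharing the same libraries and depths.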

How the data were processed

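The authors deposited 1 file of read counts per gene for each of 8 libraries. RiboMinus removal of ribosomal RNA and SOLiD whole-transcriptome sequencing are named per the labels' protocols. Per the submitters' processing notes, HTSeq and the dm3 build were used; the aligner, annotation and strand setting are not known from the sources used here. The counts were used as deposited, with no normalization by the authors.

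Tests used R 4.3.3 and edgeR 4.0.16: filterByExpr (minimum count 10, total 15), TMM, 1 model of 4 group means over all libraries (4 residual degrees of freedom), the robust quasi-likelihood test, and Benjamini-Hochberg adjustment over 9252 genes at 0.05. LOF is the mean of its 2 genotypes. Standard errors are the log2 fold divided by the square root of F, and intervals use the fit's total degrees of freedom. That total adds degrees borrowed from other genes to the 4 residual ones, so the intervals are narrower than 4 alone would give. The fit was tested on simulated counts for LOF and for GOF against wild type. In all 3 draws of each comparison the share of unchanged genes among the calls was above the nominal threshold. The adjusted p-values were thus too small in these simulated counts, whose spread was taken from the fit itself. They may be too small in the real counts too, by an amount that these draws do not give. Alternatives used DESeq2 1.42.0 and limma 3.58.1. Older symbols were matched through RefSeq Release 6.

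All 10 genes are named. Of other lists, called genes are named, or the gene with the smallest p where none is called. Named outside that rule, and chosen after their values were seen, are elav, repo, moody, Nrx-IV, Gli and nrv2. Also outside it are TBPH, VGAT and the genes that share exon with members. Act57B, CG2862 and na are named as the nearest profiles of CG1732, Gad1 and VAChT, and the nearest genes of the other members are not named. The genes and lists were chosen with earlier results of these data known.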

Additional observations from a re-analysis of the deposited data

Results flagged for a closer look

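Over the 4 LOF libraries Eaat1 had 57.9 and 104 CPM in the deficiency genotype and 54.7 and 61.2 CPM in the 2-deletion genotype. Deficiency replicate 2 stood far from the other libraries, with a gap of 0.869 of the whole range, above the 0.829 that Dixon's test allows for 4 values. Chance flags about 1 in 20 groups of values from 1 population, and 10 genes were examined in this way. These 4 libraries come from 2 genotypes, with Eaat1 means of 81.2 and 58.0 CPM, so that rate does not strictly apply.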

How the results depend on the processing

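Of 60 log2 folds (10 genes in 6 comparisons), 40 kept their direction under every alternative run and 20 did not. CG1732 in GOF against wild type ranged from -2.08 to -1.44 and was called in 16 of 19 alternatives, with adjusted p from 0.000463 to 0.0884; at an adjusted p threshold of 0.01 the count of members called there was 0, and leaving out 1 library gave 0 to 2, the 2 without GOF replicate 2. In the 2-deletion genotype the count was 1 with no filter on low counts (CG1732, adjusted p = 0.0362), 2 with only the groups compared in the fit (CG1732, adjusted p = 0.00871, and Gad1, adjusted p = 0.0193), and 0 to 1 with 1 library left out, the 1 without either GOF library. Between LOF and GOF it was 0 to 2 with 1 library left out, the 2 without GOF replicate 2.

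With the replicate number as a block, CG1732 in the 2-deletion genotype was called (log2 fold -1.13, adjusted p = 0.0394), a count of 1, and genes called over all genes were 293 in LOF, 377 in GOF, 202 in deficiency and 147 in 2-deletion libraries, beside 203, 288, 155 and 77 without it. The labels do not say that the numbers pair libraries; replicate differences correlated at 0.14 to 0.27 between mutant groups and at -0.08 to -0.01 with wild type.

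Scaling by the pan-neuronal markers, added after seeing the data, turned VAChT to 0.0867 in LOF, VAChT, VGlut and Eaat2 to 0.14, 0.10 and 0.0159 in GOF, Vmat and SerT to 0.0059 and 0.0104 in the 2-deletion genotype, VGlut to -0.0681 between the deficiency and 2-deletion genotypes, and Cha, VAChT, Gad1 and Eaat2 to -0.0455, -0.0575, -0.19 and -0.17 between LOF and GOF. It moved the median of all genes by 0.44 in GOF, 0.24 in the 2-deletion genotype and 0.11 in LOF against wild type, by -0.25 between the LOF genotypes and by -0.33 between LOF and GOF, and the calls in GOF to 1025 higher and 153 lower, beside 85 higher and 203 lower. Glial scaling, also added then, turned Gad1 and Eaat2 to -0.0060 and -0.0470 in the deficiency genotype. It moved the median of all genes by -0.12 there and by -0.15 between the LOF genotypes.

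With 1 library left out, folds that changed sign ranged from -0.0771 to 0.0552 for VAChT, -0.60 to 0.0814 for SerT and -0.51 to 0.12 for Eaat2 in LOF, and from -0.90 to 0.16 for VGlut in GOF. In the deficiency genotype they ranged from -0.35 to 0.15 for CG1732, -0.55 to 0.30 for Eaat1, -0.43 to 0.73 for Gad1, -0.25 to 0.17 for DAT, -0.31 to 0.46 for Eaat2 and -0.47 to 0.21 for Cha. SerT ranged from -0.60 to 0.20 in the 2-deletion genotype and from -0.55 to 0.15 between the LOF genotypes. Between LOF and GOF the ranges were -0.12 to 0.37 for Gad1, -0.14 to 0.45 for Eaat2 and -0.14 to 0.99 for Cha. The cause was not tested.

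Counts of all genes called ranged from 6 to 693 in LOF, 3 to 1178 in GOF, 4 to 503 in deficiency and 3 to 698 in 2-deletion libraries, and the lowest included fits with a single library in a group, whose spread is assumed to be that of the other groups. A floor of 3 counts corresponds to 2.32 to 4.29 CPM, which limits SerT, Cha and DAT most; floors and Poisson intervals cover counting error only.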

Other observations

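The V-ATPase, or vesicular proton pump, makes the gradient that vesicular transporters use. All 18 of its listed genes were tested and none was called in LOF or GOF, with medians of 0.03 and 0.01 on the log2 scale, and their summed level was 3217 to 3939 CPM in the deficiency genotype, 2981 to 3262 CPM for 2-deletion libraries, 2978 to 3631 CPM in GOF and 3043 to 3140 CPM in wild type. Vha68-2, a catalytic subunit gene, had the smallest p in both, at a log2 fold of 0.54 in LOF (adjusted p = 0.14) and 0.52 in GOF (adjusted p = 0.19). Of the histamine genes, which serve photoreceptors, 3 of 7 could be tested. The tan gene t, which recovers histamine, had the smallest p in both, with a log2 fold of -0.70 in LOF (adjusted p = 0.26) and -1.12 in GOF (adjusted p = 0.14).

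Other tissues of the head were also read from markers. Of 6 fat body markers tested, 1 was called lower in LOF, Fbp2 (log2 fold -0.95, adjusted p = 0.0489), and none in GOF, where Fbp2 had the smallest p (log2 fold -0.79, adjusted p = 0.12). Of the 6, 4 had a positive fold in LOF and 4 in GOF, with medians of 0.38 in both. The summed level of all 10 listed fat body markers was 41594 to 56186 CPM in the deficiency genotype, 33688 to 38206 CPM for 2-deletion libraries, 38671 to 48767 CPM in GOF and 28532 to 31358 CPM in wild type, so that every mutant library lay above both wild-type libraries. Of 9 epidermis and cuticle markers, 1 was called lower in LOF, laccase2, listed as CG42345, which tans the cuticle (log2 fold -0.78, adjusted p = 0.0498), and none in GOF, where laccase2 had the smallest p (log2 fold -0.77, adjusted p = 0.0791). None of 5 hemocyte markers was called in LOF, where Hml had the smallest p (log2 fold 1.12, adjusted p = 0.14), or in GOF, where Pxn had it (log2 fold -0.51, adjusted p = 0.18).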
